A study of Mus musculus with 16 samples.

Results

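The genes described here are the 3 TAM receptors, their 2 ligands and 5 further genes of dead-cell uptake, in microglia of the mouse retina. They are Axl, Mertk, Tyro3, Gas6, Pros1, Mfge8, Timd4, Itgb5, Elmo1 and Gulp1, chosen by gene symbol, 10 of the 54532 genes in the deposited table. Of these 10, 8 had enough counts to be tested, and Tyro3 and Gulp1 did not. The study set oxygen-induced retinopathy (OIR), in which a spell of high oxygen after birth stops retinal vessels growing and the later change to room air leaves the retina short of oxygen, against retina without it (nonOIR). Each group had 8 libraries, all from mice at postnatal day 17. Mice of both groups carried the Cx3cr1CreERT2 and Rosa26-tdTomato alleles and received tamoxifen in corn oil (5 µl at 21 mg per ml) under the skin at postnatal day 1, which switches on the red reporter. The Cx3cr1 driver is also active in other myeloid cells, and the cells were sorted as tdTomato+, CD11b+ and CD45 low, without Ly6C or Ly6G. A code in the labels put 5 libraries of each group in lane 1 and 3 in lane 2. Whether animals or preparation batches also differed by that code is not stated, and these cannot be told apart here. The labels do not say how many animals went into a library, so p-values measure the spread between these libraries, which may be partly technical.

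TAM receptors are receptor tyrosine kinases that bind dying cells through bridging proteins rather than directly. Gas6 and protein S (the product of Pros1) hold the lipid phosphatidylserine on a dying cell with one end and a TAM receptor with the other. Gas6 binds Axl, Mertk and Tyro3, whereas protein S acts on Mertk and Tyro3. Mfge8 is a bridging protein for integrins such as the one containing the β5 chain (Itgb5), Timd4 binds phosphatidylserine itself, and Elmo1 and Gulp1 act inside the cell during engulfment. In the retina microglia clear dying neurons, and the pigment epithelium uses Mertk and the β5 integrin to take up shed photoreceptor tips.

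Gene counts summed to 20.8 to 30.0 M per library in OIR (median 24.9 M) and 13.6 to 28.0 M in nonOIR (median 23.4 M). Levels are given as CPM, the usual scaling of counts to library size, here after TMM correction, and 3 counts, the limit that a count of 0 allows, equalled 0.0976 to 0.222 CPM. That limit, like any counting error here, takes each amplified read as a molecule, because no molecular identifiers were used. Of 12496 genes tested with edgeR's quasi-likelihood test (Benjamini-Hochberg adjusted p under 0.05), 798 were higher and 570 lower in OIR, or 1020 and 364 when scaled by library size alone. On principal components of only the most variable tested genes, OIR replicate 1 stood apart on the second (11.8% of their variance) and nonOIR replicate 8 on the third (8.78%). The 8 microglial markers summed to 30242 to 46424 CPM in OIR and 48671 to 61970 CPM in nonOIR, while no list for another cell type passed 531 CPM in any library. Of the 8 microglial markers 4 were lower in OIR, P2ry12 and Tmem119 among them. Markers of dividing cells summed to 70.1 to 355 CPM in OIR and 23.5 to 49.6 CPM in nonOIR, with 5 of 6 higher. Both sums differed between the groups without overlap, alongside every change below, and their part in those changes was not tested.

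The upstream sequence is shown for Axl, Gas6 and Pros1, the members whose transcripts differed between the groups, so that the letters upstream of the changed genes can be read beside their values. The sequences cover the 250 bases before each RefSeq start on GRCm38.p6, and all 10 members had an entry. Capitals mark the GC box GGGCGG and the PU.1 core GAGGAA on either strand. The Axl stretch lies at chr7:25788734-25788983 on the minus strand, the Gas6 stretch at chr8:13494536-13494785 on the minus strand, and the Pros1 stretch at chr16:62854057-62854306 on the plus strand.
Axl: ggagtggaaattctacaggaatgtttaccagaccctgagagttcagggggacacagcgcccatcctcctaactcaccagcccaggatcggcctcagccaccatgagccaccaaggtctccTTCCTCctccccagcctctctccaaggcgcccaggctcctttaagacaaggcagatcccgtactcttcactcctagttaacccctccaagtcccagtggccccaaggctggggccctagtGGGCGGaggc
Gas6: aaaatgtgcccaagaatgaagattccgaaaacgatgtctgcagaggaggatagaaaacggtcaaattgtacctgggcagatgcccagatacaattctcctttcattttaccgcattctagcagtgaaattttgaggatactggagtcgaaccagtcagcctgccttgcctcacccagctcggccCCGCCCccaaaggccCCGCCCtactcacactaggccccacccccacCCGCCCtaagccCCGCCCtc
Pros1: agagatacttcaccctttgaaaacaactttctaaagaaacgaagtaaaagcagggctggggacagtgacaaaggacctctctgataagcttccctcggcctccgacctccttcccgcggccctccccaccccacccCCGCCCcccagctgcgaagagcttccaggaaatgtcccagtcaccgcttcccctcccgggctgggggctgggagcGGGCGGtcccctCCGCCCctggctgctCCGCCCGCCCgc
A GC box was present upstream of 9 of the 10 members, all but Timd4, where a box in any entry of a gene counted. Elmo1 had 2 entries, and its second held no GC box. Of the 32851 sequences of the same length in the RefSeq table, 32.7% held one, a share counted by sequence and not by gene. The core recognised by PU.1, the macrophage lineage factor, was present upstream of Axl and Mfge8 and in 23.3% of all sequences. No member's window held the hypoxia element ACGTG, found in 16.6% of all, the AP-1 site TGANTCA (6.75%), the interferon element (2.98%), the antioxidant element TGACNNNGC (10.2%) or the E-box CACGTG (6.02%), which contains the hypoxia element's letters. The table's starts for Axl and Gas6 lie 28 and 45 bases from the nearest GENCODE transcript start, so these windows depend on the annotation chosen.

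Among the tested members, Axl and Gas6 were higher in OIR, Pros1 was lower, and the other 5 did not pass the test, which took no account of lane. With lane as a covariate, 4 of those 5 passed as lower (Elmo1, Itgb5, Mertk and Mfge8), in a fit that called 17.3% of all genes. These 3 called members of 8 tested compare with 10.9% of all genes tested (6.39% higher and 4.56% lower in OIR). Of the 8, 1 separated the groups without overlap upward and 0 downward, against 1.34% and 0.688% of all genes (2.02% in either direction). The median log2 fold change over the 8 tested members was -0.26, against -0.03 over all genes tested. The members were chosen with earlier results of these data known, so these shares do not test them as a set.

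Axl (ENSMUSG00000002602, chromosome 7, 25757273 to 25788705 on mm10, minus strand) encodes the TAM receptor known for its induction in activated macrophages and microglia. The lowest, median and highest OIR libraries had 567, 698 and 1019 CPM, against 267, 347 and 463 CPM in nonOIR. Every OIR library lay above every nonOIR library. The means were 731 ± 141 CPM in OIR and 355 ± 70.7 CPM in nonOIR (SD, n = 8 each), a 2.06-fold difference (log2 fold change 1.04 ± 0.13 SE, edgeR adjusted p = 0.000129). Markers of border macrophages, which sit beside vessels and meninges and share the Cx3cr1 driver in part, summed to 9.44 to 307 CPM in OIR and 13.2 to 146 CPM in nonOIR, with 0 of 6 called and none at 0 throughout. In lane 2, where the Axl log2 fold change was 1.36, this sum was higher in OIR without overlap (234 to 307 CPM in OIR, 13.2 to 136 CPM in nonOIR). In lane 1, where the Axl log2 fold change was 0.91, it overlapped (9.44 to 129 CPM in OIR, 15.0 to 146 CPM in nonOIR). Mean Axl in OIR was 737 CPM in lane 1 and 721 CPM in lane 2. In nonOIR it was 394 CPM in lane 1 and 290 CPM in lane 2, so the larger fold change in lane 2 went with a lower nonOIR level. The part of border macrophages in the Axl level was not tested.

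Mertk (ENSMUSG00000014361, chromosome 2, 128698956 to 128802894, plus strand) encodes the TAM receptor that macrophages use in steady-state clearance. Its lowest, median and highest levels were 301, 490 and 548 CPM in OIR, against 442, 529 and 684 CPM in nonOIR, and the groups overlapped. The means were 456 ± 96.6 CPM in OIR and 537 ± 85.6 CPM in nonOIR (SD, n = 8 each), which did not pass the test (log2 fold change -0.24 ± 0.13 SE, edgeR adjusted p = 0.276). Tyro3, the TAM receptor best known from neurons, had counts in 2 of 8 OIR libraries (19 and 20) and in 2 of 8 nonOIR libraries (1 and 4), and stood at 0 in the rest. It was too low to be tested. Markers of retinal neurons other than rods summed to 5.63 to 24.1 CPM in OIR and 16.6 to 54.5 CPM in nonOIR, with 2 of 6 tested lower in OIR.

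**Figure D1:**
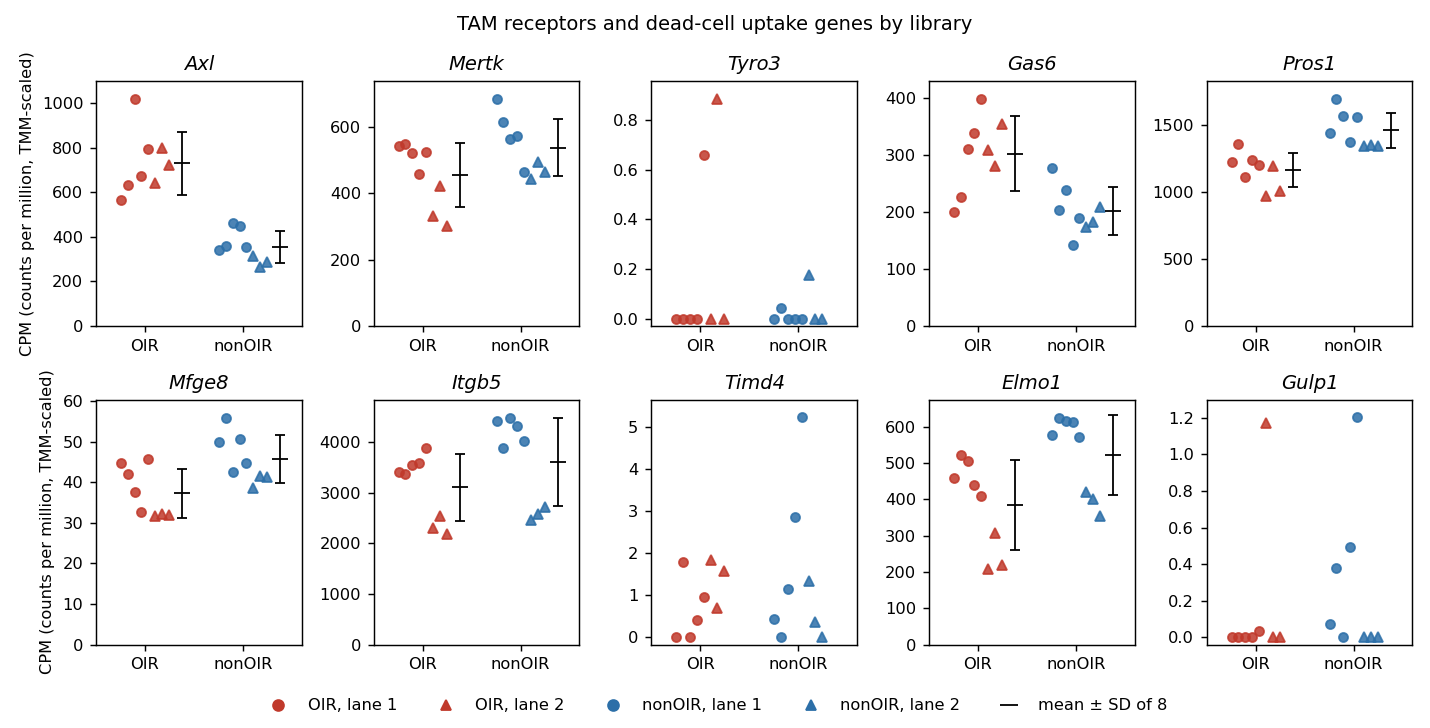
Level of each of the 10 genes (CPM, 1 panel per gene with its own axis) in the 8 OIR libraries, on the left, and the 8 nonOIR libraries, on the right; circles mark lane 1, triangles lane 2, and bars the mean ± SD for the 7 genes with higher levels. The OIR libraries sit wholly above the nonOIR libraries for Axl (567 to 1019 against 267 to 463 CPM), whereas the groups overlap in all other panels.

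The ligand transcripts moved in opposite directions. Gas6 (ENSMUSG00000031451, chromosome 8, 13465374 to 13494490, minus strand), whose product binds all 3 receptors, had a lowest, median and highest level of 200, 310 and 399 CPM in OIR, against 142, 197 and 277 CPM in nonOIR. All 8 OIR libraries lay above the nonOIR median, although OIR replicates 1 and 2 lay within the nonOIR range. The means were 303 ± 65.6 CPM in OIR and 202 ± 41.6 CPM in nonOIR (SD, n = 8 each), 49.8% higher in OIR (log2 fold change 0.58 ± 0.14 SE, edgeR adjusted p = 0.0136). Of its exon bases 34 overlap Tmem255b on the opposite strand, which matters in libraries that do not mark strand, but Tmem255b had 0 counts in all 16 libraries.

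Pros1 (ENSMUSG00000022912, chromosome 16, 62854307 to 62929346, plus strand) encodes protein S, which also serves as an anticoagulant in plasma. Its lowest, median and highest levels were 970, 1196 and 1356 CPM in OIR, against 1338, 1406 and 1690 CPM in nonOIR. All 8 OIR libraries were below the nonOIR median, and 1 of them, OIR replicate 2, lay inside the nonOIR range. Pros1 averaged 1162 ± 128 CPM in OIR and 1457 ± 132 CPM in nonOIR (SD, n = 8 each), 0.797 of the nonOIR level (log2 fold change -0.33 ± 0.08 SE, edgeR adjusted p = 0.0118). The authors' deposited table also gives an adjusted p under 0.05 to 3 of the members, with log2 fold changes of 1.00 for Axl, 0.56 for Gas6 and -0.31 for Pros1.

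Count ratios within a library do not depend on how libraries are scaled, and they are given here as a description without a test. The ratio of Axl to Mertk counts was 1.05 to 2.40 in OIR (median 1.70) and 0.498 to 0.823 in nonOIR (median 0.668). The groups did not overlap, and the mean difference was 1.30 on the log2 scale (2.46-fold). Per kilobase of exon, Axl exceeded Mertk in 6 of 8 OIR libraries, all but replicates 1 and 2, and in 0 of 8 nonOIR libraries. The difference was 1.04 in lane 1 and 1.73 in lane 2. The ratio of Gas6 to Pros1 counts was 0.164 to 0.353 in OIR (median 0.276) and 0.103 to 0.193 in nonOIR (median 0.132), a mean log2 difference of 0.91, with 0.79 in lane 1 and 1.10 in lane 2. OIR replicates 1 and 2 had the lowest values of both ratios among OIR libraries. These libraries share a code in the labels that no other library carries and whose meaning is not given, and they also had the lowest sums of dividing-cell markers in OIR, 70.1 and 92.2 CPM.

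**Figure D2:**
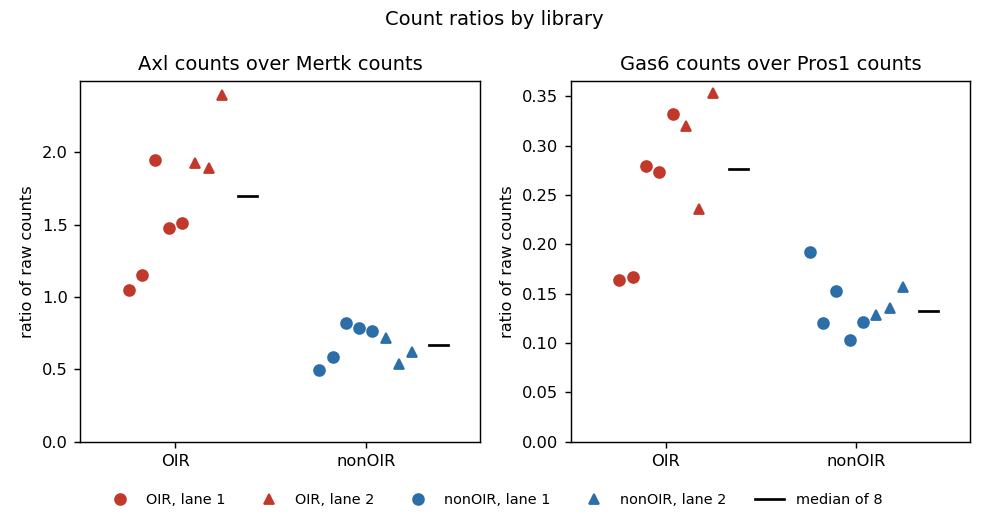
Ratio of Axl to Mertk counts and of Gas6 to Pros1 counts in each library on a linear axis, with OIR left of nonOIR, circles for lane 1 and triangles for lane 2. The Axl to Mertk ratio does not overlap between OIR (1.05 to 2.40) and nonOIR (0.498 to 0.823), while the Gas6 to Pros1 ratio overlaps through OIR replicates 1 and 2 and nonOIR replicate 1.

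The integrin route to uptake was represented by Mfge8 and Itgb5, and neither passed the test over all libraries, although both passed as lower in OIR with lane as a covariate (edgeR adjusted p = 0.0264 for Mfge8 and 0.00857 for Itgb5). Mfge8 (chromosome 7, 79133768 to 79149060, minus strand) had a lowest, median and highest level of 31.5, 35.1 and 45.7 CPM in OIR, against 38.5, 43.6 and 55.9 CPM in nonOIR. Its means of 37.3 ± 6.04 CPM in OIR and 45.6 ± 5.95 CPM in nonOIR (SD, n = 8 each) had an edgeR adjusted p of 0.112 (log2 fold change -0.29 ± 0.11 SE). Itgb5 (chromosome 16, 33829665 to 33949338, plus strand) had 2184, 3397 and 3893 CPM in OIR, against 2472, 3964 and 4487 CPM in nonOIR, as lowest, median and highest. All 8 OIR libraries lay below the nonOIR median, but 6 of them lay inside the nonOIR range, and the log2 fold change was -0.22 ± 0.15 SE (edgeR adjusted p = 0.415). In lane 1 alone Itgb5 stood at 3379 to 3893 CPM in OIR and 3895 to 4487 CPM in nonOIR, narrowly without overlap (edgeR adjusted p = 0.0531). In lane 2 alone the groups overlapped, at 2184 to 2551 CPM in OIR and 2472 to 2728 CPM in nonOIR. The log2 fold change there was -0.10 (edgeR adjusted p = 0.459). Itgb5 also differed between the lanes, with a log2 difference of -0.65 for lane 2 over lane 1 (edgeR adjusted p = 1.38e-07).

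Timd4, a phosphatidylserine receptor of long-lived resident macrophages, was near the lower limit of measurement. It had a lowest, median and highest level of 0, 0.838 and 1.84 CPM in OIR, against 0, 0.795 and 5.24 CPM in nonOIR. The groups overlapped fully, and the log2 fold change was -0.65 ± 0.99 SE (edgeR adjusted p = 0.751). Its direction depended on nonOIR replicate 5 (0.05 without it). That replicate, which had the 5.24 CPM, had a border macrophage sum of 62.6 CPM, inside the range of the other nonOIR libraries.

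Elmo1 and Gulp1 act after a receptor is engaged. Elmo1 (ENSMUSG00000041112, chromosome 13, 20090596 to 20608353, plus strand), which works with Dock proteins to activate the GTPase Rac, had a lowest, median and highest level of 209, 423 and 522 CPM in OIR, against 353, 575 and 624 CPM in nonOIR. Its means were 383 ± 124 CPM in OIR and 522 ± 111 CPM in nonOIR (SD, n = 8 each), which did not pass the test when all libraries were compared without regard to lane (log2 fold change -0.45 ± 0.19 SE, edgeR adjusted p = 0.147). Within the lanes the groups did not overlap. In lane 1 Elmo1 stood at 408 to 522 CPM in OIR and 572 to 624 CPM in nonOIR (log2 fold change -0.36, edgeR adjusted p = 0.0217), and in lane 2 at 209 to 308 CPM in OIR and 353 to 419 CPM in nonOIR (log2 fold change -0.63, edgeR adjusted p = 0.0192). The antisense gene Gm32036, which overlaps 403 of its exon bases, averaged 1.38 CPM in OIR and 2.74 CPM in nonOIR. Gulp1, an adaptor for engulfment receptors, had counts in 2 of 8 OIR libraries (27 in total) and in 4 of 8 nonOIR libraries (52 in total), and was not tested.

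Between the libraries of the 2 lane codes, 24.8% of all genes tested differed beside group, and among the members Elmo1, Itgb5, Mertk, Pros1 and Mfge8 were lower in lane 2. Because each group holds the same 5 and 3 libraries per lane, the group comparison could be made within each. In lane 1, 3 members passed (Axl, Pros1 and Elmo1), against 3.33% of all genes tested there, and in lane 2 the same 3 and Gas6 did, against 15.4%. Axl was higher in OIR in both, with log2 fold changes of 0.91 in lane 1 (edgeR adjusted p = 0.00720) and 1.36 in lane 2 (edgeR adjusted p = 0.000129). Pros1 was lower in both, at -0.31 on the log2 scale in each (edgeR adjusted p = 0.0356 in lane 1 and 0.0480 in lane 2). Gas6 passed in lane 2 (0.79, edgeR adjusted p = 0.00279) and not in lane 1 (0.50, edgeR adjusted p = 0.222). Of the members, 3 separated the groups without overlap in both lanes: Axl upward, as did 2.63% of all genes tested, and Pros1 and Elmo1 downward, as did 1.38%.

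With lane as a covariate, 7 of the 8 tested members passed, Axl and Gas6 higher and Pros1, Elmo1, Itgb5, Mertk and Mfge8 lower in OIR, against 17.3% of all genes in the same fit. The values under that fit were -0.48 for Elmo1 (edgeR adjusted p = 0.000670), -0.21 for Itgb5 (0.00857), -0.25 for Mertk (0.0433) and -0.29 for Mfge8 (0.0264). A difference of the OIR effect between the lanes was tested as an interaction, which 0.496% of all genes passed and no member did. Axl had an interaction of 0.41 on the log2 scale (edgeR adjusted p = 0.460).

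**Figure D3:**
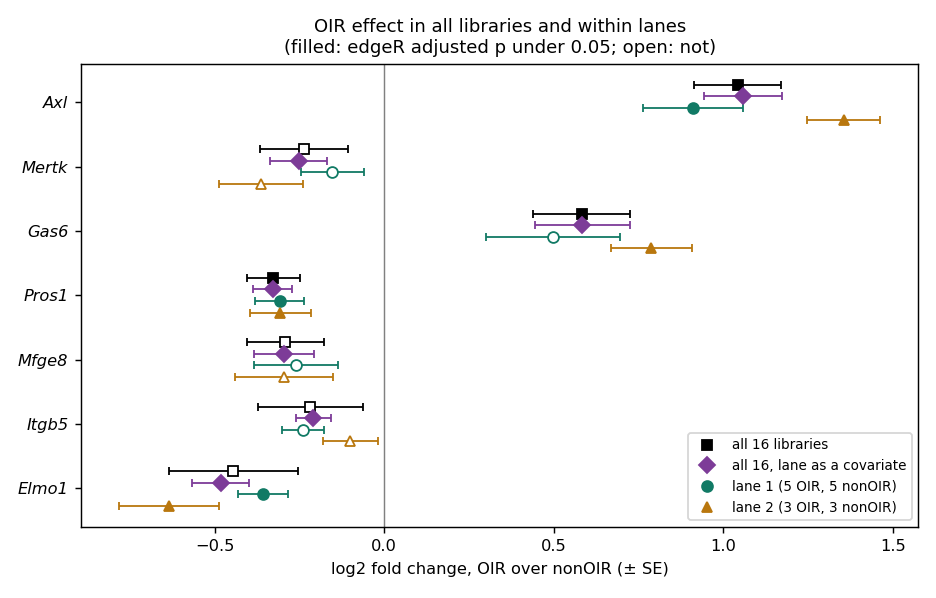
Log2 fold change of OIR over nonOIR (± SE, edgeR) for the 7 tested genes above 10 CPM, from all libraries, with lane as a covariate, from lane 1 and from lane 2, with filled symbols where the adjusted p was under 0.05. Axl lies between 0.91 and 1.36 and Pros1 between -0.33 and -0.31 in these fits, with filled symbols in each, whereas Elmo1 is open with all libraries and filled in the other fits.

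Per kilobase of exon, which allows levels of different genes to be compared, Itgb5 was the highest member in both groups, at a mean of 875 CPM per kb in OIR and 1018 CPM per kb in nonOIR. Pros1 came next, at 284 CPM per kb in OIR and 357 CPM per kb in nonOIR. The 3 genes that followed had another order in each group. In OIR the order was Axl (145 CPM per kb), Gas6 (119) and Mertk (105), and in nonOIR it was Mertk (124 CPM per kb), Gas6 (79.3) and Axl (70.5). Axl exceeded Gas6 in 8 of 8 OIR libraries and Gas6 exceeded Axl in 7 of 8 nonOIR libraries, although the ranges of these neighbours overlapped. Elmo1 (30.5 in OIR and 41.5 in nonOIR) and Mfge8 (7.94 in OIR and 9.72 in nonOIR) followed without overlap with the genes above them, and Timd4, Gulp1 and Tyro3 were last, with overlapping ranges.

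**Figure D4:**
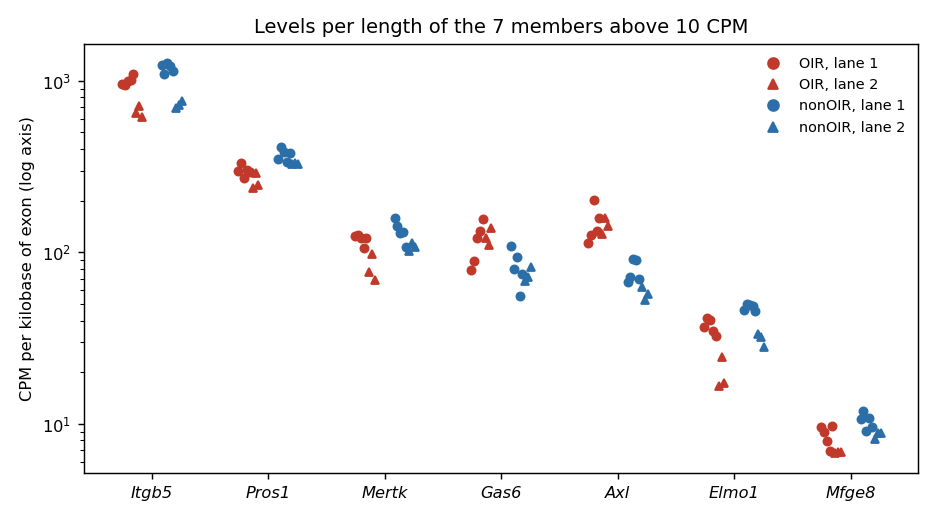
Level per kilobase of GENCODE exon (CPM per kb, log axis) of the 7 members above 10 CPM in each library, with OIR left of nonOIR for each gene, circles for lane 1 and triangles for lane 2. On average Axl stood above Mertk in OIR (145 against 105 CPM per kb) and below it in nonOIR (70.5 against 124 CPM per kb).

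Beyond the 10 members, a list of 58 further genes of dead-cell uptake was read in the same fit, of which 51 were tested, 10 were higher and 1 was lower in OIR. This is 21.6% of those tested, against 10.9% of all genes, and the median log2 fold change was 0.06. In lane 1 alone 6 were higher and 1 lower, where 3.33% of all genes tested passed, and in lane 2 alone 15 were higher and 1 lower, where 15.4% passed. The 7 that were too low to test were Adgrb1, Stab2, Havcr1, Megf10, Edil3, Gpr132 and Elmo3, with Havcr1 at 0 in every library. The list was chosen with earlier results of these data known, so these shares are a description and not a test of the list.

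Of the 13 tested receptors for phosphatidylserine or apoptotic cells, 4 were higher and 1 was lower in OIR. Cd36, a scavenger receptor for oxidised lipid, averaged 43.8 ± 35.5 CPM in OIR and 6.74 ± 3.99 CPM in nonOIR (SD, n = 8 each), 6.50-fold higher (edgeR adjusted p = 0.00232). Msr1, the class A scavenger receptor, was 3.44-fold higher (edgeR adjusted p = 0.00829), with 11.7 to 61.7 CPM in OIR and 1.63 to 10.3 CPM in nonOIR. Msr1 did not pass in lane 1 alone (edgeR adjusted p = 0.210), and the log2 fold changes were 1.66 in lane 1 and 3.47 in lane 2 for Cd36, and 0.95 in lane 1 and 2.50 in lane 2 for Msr1. In lane 2 the border macrophage sum was also higher in OIR, and its part in these values was not tested. Cd300lb and Cd300lf, which were named after their values were seen, were the other 2, at log2 fold changes of 2.05 and 1.19 (edgeR adjusted p = 0.0155 and 0.00612). Cd300lf did not pass in lane 1 alone (edgeR adjusted p = 0.0648), nor Cd300lb in either lane alone (0.0592 in lane 1 and 0.0516 in lane 2), nor Cd300lb without the filter on low counts. Cd300a, an inhibitory phosphatidylserine receptor, was the one that was lower, at 234 ± 27.1 CPM in OIR and 331 ± 55.6 CPM in nonOIR (SD, n = 8 each, edgeR adjusted p = 0.00416), without overlap of the groups.

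Among the 7 tested genes listed here under bridging proteins, Anxa5, which binds phosphatidylserine, was higher in OIR (113 to 313 CPM in OIR, 63.3 to 110 CPM in nonOIR, 2.33-fold, edgeR adjusted p = 0.00109). Of 3 tested receptors for signals released by dying cells, S1pr1, a receptor for sphingosine 1-phosphate, was 1.72-fold higher (edgeR adjusted p = 0.00144). Of 5 genes for handling engulfed lipid, the sterol exporters Abca1 and Abcg1 and the mitochondrial carrier Ucp2 were higher, with log2 fold changes of 1.12, 1.24 and 0.58 (edgeR adjusted p = 0.00172, 0.000435 and 0.00124). Anxa5, S1pr1, Abca1, Abcg1 and Ucp2 also passed in each lane alone. Of 7 phagosome maturation genes, the GTPase gene Rab7 was 1.22-fold higher (edgeR adjusted p = 0.0208), a call it lost in lane 1 alone (edgeR adjusted p = 0.229) and without the filter on low counts.

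None of the 10 tested genes of engulfment signalling passed, among them Elmo1's partners Dock1 (20.6 ± 5.71 CPM in OIR, 17.7 ± 6.95 CPM in nonOIR) and Dock2 (303 ± 118 CPM in OIR, 290.3 ± 88.0 CPM in nonOIR; SD, n = 8 each). Their edgeR adjusted p-values were 0.626 and 0.909. The sheddases Adam10 and Adam17, which can release TAM receptors from the cell surface, and the feedback inhibitors Socs1 and Socs3 did not pass either, the lowest edgeR adjusted p among them being 0.357. Cd47 and Sirpa, the pair that holds uptake in check, had log2 fold changes of -0.18 each (edgeR adjusted p = 0.119 and 0.457).

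**Figure D5:**
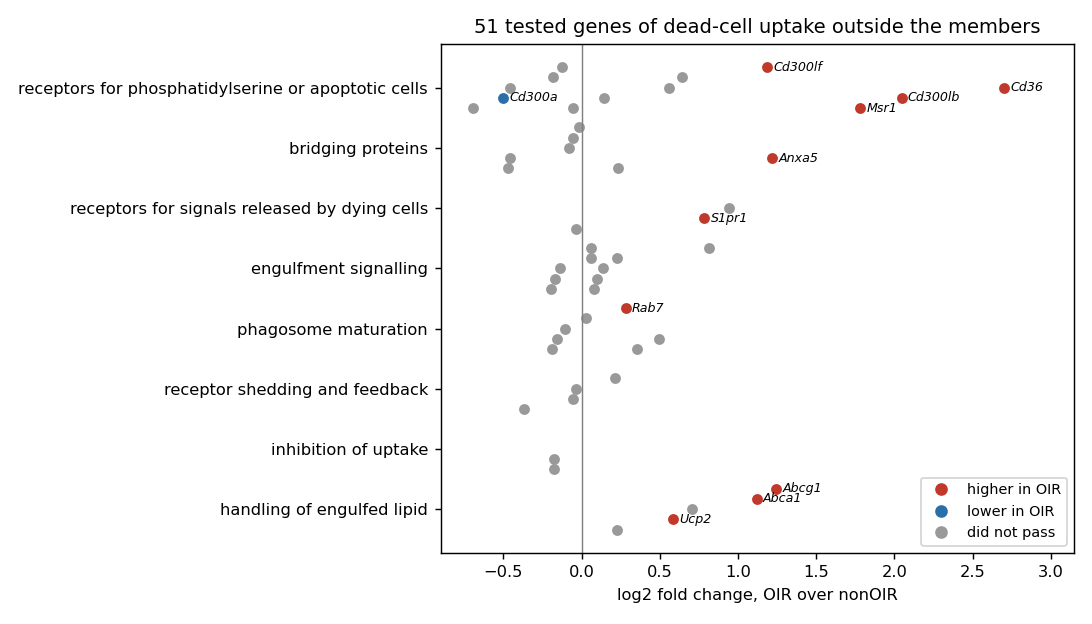
Log2 fold change of OIR over nonOIR for each tested gene of the uptake list, 1 point each and grouped by role, red where higher in OIR, blue where lower and grey where the edgeR test was not passed. The 10 genes higher in OIR fall in the groups listed as receptors, bridging proteins, dying-cell signal receptors, phagosome maturation and lipid handling, and Cd300a is the 1 lower.

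After the mean of each group and lane was subtracted, the genes whose log2(CPM + 1) followed Axl most closely over the 16 libraries were E2f8, a cell-cycle transcription factor (Pearson r 0.885), Sdc3, a cell-surface proteoglycan (0.871), and Pml, which forms nuclear bodies (0.868). E2f8 averaged 5.50 CPM in OIR and 0.343 CPM in nonOIR, Sdc3 339 CPM in OIR and 139 CPM in nonOIR, and Pml 31.4 CPM in OIR and 21.6 CPM in nonOIR. Those closest to Mertk were Pfkfb3, a regulator of glycolysis (0.890), Rere, a nuclear coregulator (0.877), and Sirpa (0.874). The libraries share their preparation and these are the highest values among the 12496 genes, so they describe the libraries only.

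The other marker lists bear on genes that retinal cells besides microglia express. Mueller glia markers, mainly Glul and Slc1a3, which microglia also express, summed to 241 to 365 CPM in OIR and 333 to 399 CPM in nonOIR, with 1 of 5 tested (Glul) lower and none at 0 throughout. Their level moved in the direction of Pros1, Mfge8 and Mertk, and its part in those values was not tested. Retinal pigment epithelium markers summed to 1.62 to 10.3 CPM in OIR and 1.70 to 11.6 CPM in nonOIR, and endothelial markers to 9.27 to 37.6 CPM in OIR and 21.8 to 41.0 CPM in nonOIR, with 0 called in either list. Erythrocyte markers summed to 1.87 to 292 CPM in OIR and 0 to 28.6 CPM in nonOIR, with 2 of 2 tested higher. Monocyte markers reached 15.9 CPM in OIR and 7.98 CPM in nonOIR, with Ly6c2 at 0, and granulocyte markers 0.963 CPM in OIR and 0.217 CPM in nonOIR, with Ly6g and Retnlg at 0. In such bulk samples, fewer cells of a type and less RNA per cell cannot be told apart.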

How the data were processed

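RNA from 16 libraries of sorted retinal microglia, 8 OIR and 8 nonOIR, was read from 1 end, after amplification from 750 pg of total RNA with a kit that does not mark strand, per the labels' protocols. The authors deposited counts, which are whole numbers of reads for each gene. Tools named in the submitters' processing notes, with no role given, are STAR 2.6.0b-1, featureCounts 1.6.2, FastQC 0.72 and DESeq2 2.11.40.2, with mm10 as the build. The sources used here do not give the annotation. The deposited normalized signal is the count divided by a factor for its library, as read from the values. Other columns of the authors' table (log2 fold change, standard error, Wald score and p-values) served to compare calls.

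Groups and lanes follow the labels. After filterByExpr and TMM scaling, 12496 genes were tested by edgeR 4.0.16 (R 4.3.3) with robust glmQLFit and a two-sided glmQLFTest without covariates. Adjusted p-values are Benjamini-Hochberg values over these genes, read at a threshold of 0.05, and each edgeR p printed is from this quasi-likelihood test or a named variant of it. The SE of a log2 fold change is its size divided by the square root of F. The biological coefficient of variation was 40.3%. Alternatives were other scalings and filters, lane as a covariate or alone, a replicate block, DESeq2 1.42.0, limma-voom 3.58.1 and the omission of each library. Within each group every pair of libraries differed beyond sampling noise, with chi-square values per gene from 14.7 upward.

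The 10 members and all gene lists were chosen with earlier results of these data known. All 10 members are named. From the uptake list, up to 3 called genes per role are named, those with the lowest p whose mean reaches 10 CPM in the higher group, and for Axl and Mertk the 3 most alike genes. Coordinates come from GENCODE M21 on mm10, in which 54495 of the gene identifiers were found, and upstream sequences from RefSeq on GRCm38.p6. Protein sequences were not used here, and the value of 1 marker gene is not reported here.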

Additional observations from a re-analysis of the deposited data

Results flagged for a closer look

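A library far from the others of its group was looked for in 24 groups of 8, of which chance gives about 1 in 20, and 3 were found, all in genes too low to be tested. Gulp1 stood at 1.17 CPM (26 counts) in OIR replicate 6, where the next OIR library had 1 count. Gulp1 also stood at 1.20 CPM (31 counts) in nonOIR replicate 5. Tyro3 stood at 0.178 CPM (4 counts) in nonOIR replicate 6.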

How the results depend on the processing

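Axl and Pros1 passed under all 28 alternatives (edgeR fits, DESeq2 and limma-voom), with log2 fold changes of 0.91 to 1.36 for Axl and -0.36 to -0.26 for Pros1, and Gas6 under 27, all but lane 1 alone (0.50). Without the low-count filter 9 uptake genes were called, Cd300lb and Rab7 losing their calls, and Cd300lb also lost it under the replicate block. The members called numbered 7 with lane as a covariate, against 3 without it, and genes called 2159 against 1368. In lane 1 alone (5 libraries per group) 417 genes and 7 uptake genes were called, against 1368 and 11 over both lanes. In lane 2 alone (3 libraries per group) 2015 genes and 16 uptake genes were called. The cause of this difference was not tested. The Axl to Mertk difference was 1.73 in lane 2, against 1.30 over both lanes, and the cause was not tested. Timd4 reversed direction in lane 2 alone (1.32) and without nonOIR replicate 5 (0.0537; -0.86 to 0.0537 over the omissions of 1 library). Leaving out each library in turn gave 3 members called every time, 11 to 13 uptake genes, 935 to 1556 genes, and log2 differences of 1.22 to 1.39 for Axl to Mertk and 0.84 to 1.00 for Gas6 to Pros1. Without OIR replicate 1 and nonOIR replicate 8 together, 3 members were called. A replicate block called 5 members, adding Elmo1 and Itgb5 as lower. Same-numbered libraries correlated at -0.02 to 0.19 and 2 of 8 correlated best with their own number. Such weak correlations cannot exclude a pairing by number. The main test did not pair the libraries, and the replicate block also holds the lane. The Gas6 to Pros1 ratio, the lane term and the separation within lanes were added after the data were seen.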
